A study of Mus musculus with 12 samples.

Results

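Interferon-stimulated genes are the genes that a cell switches on when interferon reaches its receptors. A set of 42 of them was picked out by symbol from the 48709 genes or gene-like names of the deposited tables and followed through thymic *i*NKT cells that overexpress miR-155. Of these, 36 are known mainly as genes of type I interferon, and 6 (*Gbp2*, *Gbp3*, *Gbp7*, *Irgm1*, *Igtp* and *Iigp1*) are also strongly induced by IFN-γ and are reported apart. All 42 were found in both tables, and all 42 passed the filter on low counts in each of the 5 comparisons made.

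RNA was sequenced in 12 libraries, 3 in each of 4 groups, namely miR-155KI NK1.1+, WT NK1.1+, miR-155KI NK1.1- and WT NK1.1- *i*NKT cells. The mice were C57BL/6J and 7 weeks old. The miR-155KI mice carried 2 copies of a miR-155 knock-in allele in the Rosa26 locus together with a Cre transgene under the *Cd4* promoter, which is active from the double-positive thymocyte stage on, so that the conventional αβ T cells of these mice carry the change as well. The WT controls were littermates that carried the knock-in allele but no Cre, and no group had the Cre without the allele. *i*NKT cells are T cells with a semi-invariant TCR that reads lipids on CD1d. They were sorted from thymus as TCRβ+ CD1d-tetramer+ cells, and the NK1.1+ pool corresponds to stage 3, which is mostly *i*NKT1 cells, while the NK1.1- pool corresponds to stages 1 and 2, with *i*NKT2, *i*NKT17 and immature cells. The sources do not tie a library to single mice, and the methods speak of pooled biological replicates, so a p-value here reflects how far the 3 libraries of a group scatter, and some of that scatter may be technical. In RNA from sorted pools, fewer cells of a type and less RNA per cell cannot be told apart.

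Type I interferons bind the receptor made of IFNAR1 and IFNAR2, and signaling through the kinases JAK1 and TYK2 leads to binding of the interferon-stimulated response element (ISRE) in the promoters of antiviral genes by a complex that contains IRF9. IFN-γ binds IFNGR1 and IFNGR2 and acts mainly through the GAS element, and it is a hallmark cytokine of *i*NKT1 cells. Thymocytes mature in an interferon-containing environment, and a basal level of interferon-stimulated transcripts is known in thymic T cells without infection.

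Promoters that hold the core of the ISRE are shown first. They belong to members that changed in a comparison below and to *Isg15*, which was not shown to change. They were picked for the core, so they show its form and not how widely the members share it. For 32 of the 42 members a promoter, from 250 bases before to 50 after the annotated start, was found in RefSeq (GRCm38.p6). The sequences run 5′ to 3′ on the strand of the gene, and capitals mark the ISRE core GAAA-NN-GAAA (N is any base) or, on the other strand, TTTC-NN-TTTC, with overlapping cores joined. Where the core lies before the start, up to 20 bases on each side are given, and where it lies past the start, 30 bases in all.
Ifitm2 chr7:140955978-140956027 (minus strand): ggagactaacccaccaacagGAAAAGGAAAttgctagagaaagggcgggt
Ifitm3 chr7:141010714-141010743 (minus strand): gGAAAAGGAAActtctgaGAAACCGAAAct
Gbp3 chr3:142559979-142560034 (plus strand): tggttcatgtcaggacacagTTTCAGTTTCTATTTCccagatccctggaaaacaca
Gbp7 chr3:142530263-142530312 (plus strand): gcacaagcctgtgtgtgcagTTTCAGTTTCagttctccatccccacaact
Igtp chr11:58199502-58199551 (plus strand): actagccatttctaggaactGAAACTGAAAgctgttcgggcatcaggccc
Ifit3 chr19:34583353-34583436 (plus strand): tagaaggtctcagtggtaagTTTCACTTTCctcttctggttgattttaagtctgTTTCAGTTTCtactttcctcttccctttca
Oas1a chr5:120907526-120907565 (minus strand): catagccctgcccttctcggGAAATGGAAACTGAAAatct
Oas3 chr5:120777705-120777754 (minus strand): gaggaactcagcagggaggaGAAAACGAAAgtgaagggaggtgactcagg
Isg15 chr4:156200855-156200916 (minus strand): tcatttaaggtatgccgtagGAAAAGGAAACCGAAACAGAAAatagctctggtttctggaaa
The core was present in 20 of the 32 matched members (62.5%), 15 of 27 genes of type I interferon and 5 of 5 genes also induced by IFN-γ, against 1079 of 27025 genes with a promoter in the table (3.99%). *Ifitm2* and *Ifitm3*, which both changed between the pools, share the letters GAAAAGGAAA. *Isg15*, whose level was not shown to change in any comparison, holds these letters too. *Isg15* carries 3 overlapping cores. The 84 bases shown for *Ifit3* occur without a difference in the promoter of its neighbor *Ifit3b*, at chr19:34607749-34607832. The GAS core TTCNNNGAA, which reads the same on both strands, was present in 9 of the 32 members (28.1%), against 9.55% of all genes. *Oasl2*, *Ifitm1* and *Samd9l* are among the 12 matched members without an ISRE core in this window, which says only that these letters are not there. *Ifi27*, *Mx1*, *Parp14* and *Iigp1* were not matched.

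**Figure D1:**
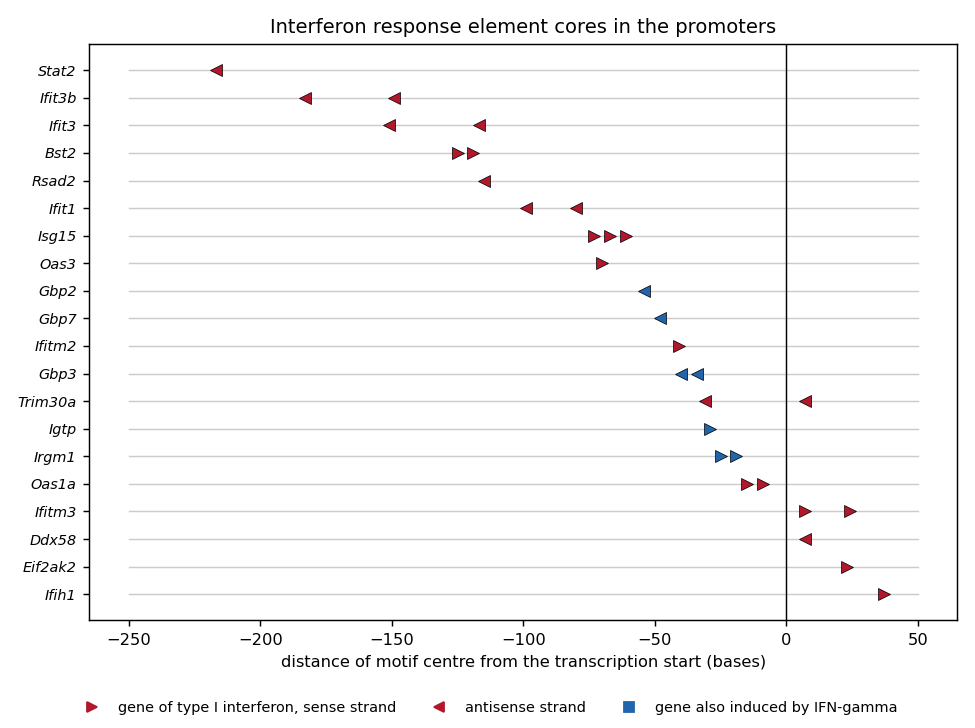
Position of ISRE cores (GAAA-NN-GAAA on either strand) in the RefSeq promoters of the 20 members that hold one, with the distance of the core's centre from the annotated transcription start in bases on the x axis and 1 gene per row. Arrows point along the strand of the match and colours separate genes of type I interferon from genes also induced by IFN-γ. The cores of *Gbp3*, *Gbp7*, *Igtp* and *Ifitm2* lie 29 to 48 bases before the start, and those of *Ifitm3* and *Ifih1* lie 7 to 37 bases after it.

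The knock-in was visible in its own transcript. *Mir155hg*, the host transcript of miR-155, was at 116, 128 and 95.2 CPM in miR-155KI NK1.1+ libraries against 12.1, 11.7 and 11.2 CPM in WT NK1.1+ libraries, and at 144, 137 and 132 CPM in miR-155KI NK1.1- libraries against 13.0, 13.7 and 9.65 CPM in WT NK1.1- libraries. Levels are given as CPM, read counts scaled to the size of the library and TMM-normalized, which sets aside differences of composition between libraries. The mature miRNA and its seed, the bases that pair with targets, in capitals, are given because the seed defines what a direct target would carry.
miR-155-5p chr16:84714143-84714165 (plus strand, GRCm38.p6): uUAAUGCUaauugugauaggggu
Socs1 3′ UTR site, chromosome 16: cgctgtgccgcAGCATTAAgtgggggcgcc
The matching 8 bases AGCATTAA occurred in an annotated 3′ UTR of 0 of the 42 members, against 672 of 21028 genes with a 3′ UTR (3.2%), and the 7 bases AGCATTA in that of *Trim30a* and *Gbp7*, 2 of 42 (4.76%) against 8.82% of genes. The site in *Socs1*, an inhibitor of JAK kinases, lies outside the member list. It is shown because SOCS1 is a known target of miR-155 and a feedback inhibitor of interferon signaling. A match is a sequence description only.

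Library depth was 12819476 to 20518257 counts, the members took 0.343% to 0.454% of them, and 3 counts correspond to 0.150 to 0.226 CPM. Markers of *i*NKT cells summed to between 4080 and 5510 CPM in every library, and those of the NK1.1+ pool (*Klrb1c*, *Tbx21* and others) summed to 3310 to 4750 CPM in miR-155KI NK1.1+, 4170 to 5010 CPM in WT NK1.1+, 632 to 776 CPM in miR-155KI NK1.1- and 1020 to 1230 CPM in WT NK1.1- libraries, so the sort gate is visible in the RNA. Some libraries stood apart from the others of their group. The log2 ratio of Y-linked RNA to *Xist* was 2.30 to 4.52 in all miR-155KI libraries, 4.06 and 3.51 in replicate 1 of WT NK1.1+ and WT NK1.1- cells, and -3.49 to -2.97 in WT replicates 2 and 3. Summed myeloid markers reached 481 to 1220 CPM in miR-155KI NK1.1+ libraries, with 1220 CPM in replicate 2, against 231 to 277 CPM in WT NK1.1+ libraries, and were 347 to 387 CPM in miR-155KI NK1.1- against 268 to 437 CPM in WT NK1.1- libraries. B cell markers summed to 930 CPM in WT NK1.1- replicate 1 against 203 and 170 CPM in replicates 2 and 3, and double-positive thymocyte markers to 246 CPM in miR-155KI NK1.1+ replicate 1 against 33.6 and 39.7 CPM in replicates 2 and 3. Markers of plasmacytoid dendritic cells, which express interferon-stimulated genes at a high basal level, summed to 176 to 253 CPM in miR-155KI NK1.1+, 160 to 170 CPM in WT NK1.1+, 378 to 551 CPM in miR-155KI NK1.1- and 288 to 421 CPM in WT NK1.1- libraries. Most of the NK1.1- sum was *Ccr9*, a homing receptor that thymocytes also express (228 to 372 CPM in miR-155KI NK1.1- and 155 to 279 CPM in WT NK1.1- libraries), 1 of the 8 genes, *Cox6a2*, was at 0 in all NK1.1+ libraries, and the defining marker *Siglech* stayed at 0 to 1.53 CPM in all libraries. The part of these other cells in the results was not tested.

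Every member was transcribed at a level above 3 counts in every library. Per kilobase of annotated exon, *Bst2*, which encodes tetherin, a membrane protein that holds budding viruses, had the highest level of the 42 in miR-155KI NK1.1+ (170 CPM per kb), WT NK1.1+ (158) and WT NK1.1- cells (169). In miR-155KI NK1.1- cells *Ifi27*, which encodes a small mitochondrial protein, was highest at 215 ± 13.7 CPM per kb, ahead of *Bst2* at 156 ± 5.86 (SD, n = 3 each). *Isg15*, a ubiquitin-like modifier, and *Igtp*, a GTPase of the cell-autonomous defense against intracellular pathogens, followed within the first 8 ranks in all groups. *Ifi44* (1.66 and 1.63 CPM per kb in miR-155KI and WT NK1.1+ cells) and *Ifitm1* (0.317 and 0.692 CPM per kb in miR-155KI and WT NK1.1- cells) were lowest. The order near the top is not fixed, since *Ifit3* in WT NK1.1+ cells (128 ± 57.3) and *Bst2* there (158 ± 38.4 CPM per kb; SD, n = 3 each) overlap.

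The largest differences among the members lay between the pools, and the IFITM family led them in both genotypes. The IFITM proteins sit in cellular membranes and hinder the fusion of enveloped viruses. *Ifitm1* was at 7.64, 5.90 and 4.35 CPM in WT NK1.1+ against 0.628, 1.03 and 0.614 CPM in WT NK1.1- libraries, and at 6.10, 4.56 and 2.14 CPM in miR-155KI NK1.1+ against 0.258, 0.301 and 0.482 CPM in miR-155KI NK1.1- libraries. *Ifitm2* was at 30.2, 25.3 and 20.6 CPM in WT NK1.1+ against 4.12, 6.58 and 5.75 CPM in WT NK1.1- libraries, and at 11.5, 21.8 and 9.46 CPM in miR-155KI NK1.1+ against 2.06, 2.18 and 4.50 CPM in miR-155KI NK1.1- libraries. *Ifitm3* was at 28.3, 23.4 and 25.5 CPM in WT NK1.1+ against 5.38, 6.35 and 7.25 CPM in WT NK1.1- libraries, and at 21.2, 10.2 and 16.0 CPM in miR-155KI NK1.1+ against 2.47, 3.16 and 2.41 CPM in miR-155KI NK1.1- libraries. For all 3 genes every NK1.1+ library lay above every NK1.1- library of its genotype. In WT cells the log2 fold changes (NK1.1+ over NK1.1-) were 2.93 ± 0.41 for *Ifitm1* (adjusted p = 0.000459), 2.17 ± 0.24 for *Ifitm2* (adjusted p = 0.000115) and 1.99 ± 0.20 for *Ifitm3* (adjusted p = 6.09e-05), each with its standard error, from edgeR's quasi-likelihood test adjusted over all genes tested. In miR-155KI cells they were 3.59 ± 0.74 (adjusted p = 0.0111), 2.29 ± 0.49 (adjusted p = 0.0133) and 2.56 ± 0.41 (adjusted p = 0.00293) from edgeR.
*Ifitm1* rested on few reads in the NK1.1- pool, with 4 to 9 counts in miR-155KI and 9 to 18 counts in WT libraries. The 3 genes are neighbors on chromosome 7 (*Ifitm2* at chr7:140954837-140955987, *Ifitm1* at chr7:140967221-140969825 and *Ifitm3* at chr7:141009586-141010770, GRCm38). Of the 50-base stretches of *Ifitm2* transcripts, 48.5% also occur in other genes, mainly *Gm45717*, an annotated gene that overlaps *Ifitm2* on the same strand, so the split of *Ifitm2* reads depends on the counting program.

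**Figure D2:**
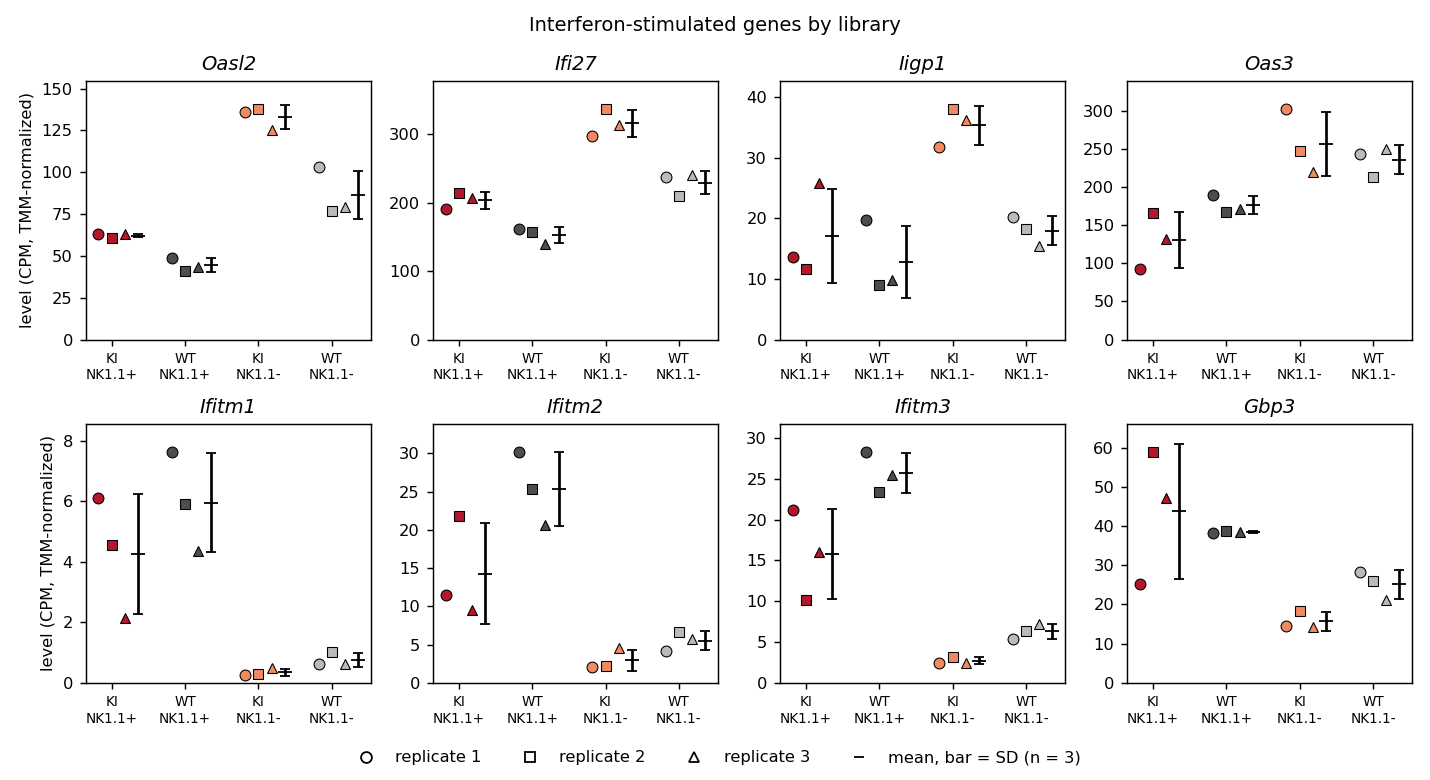
CPM (y axis) of 8 members in every library of the 4 groups (x axis), with 1 symbol per replicate number and bars for mean ± SD (n = 3). *Ifitm1*, *Ifitm2*, *Ifitm3* and *Gbp3* were higher in NK1.1+ libraries, *Oasl2*, *Ifi27* and *Oas3* were lower there, and *Iigp1* was highest in miR-155KI NK1.1- libraries, at 31.7 to 38.1 CPM.

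Beside the IFITM genes, 5 members rose and 3 fell in WT NK1.1+ against WT NK1.1- cells, which makes 8 of 42 past the threshold as higher and 3 as lower, against 9.89% and 10.9% of all genes tested in that comparison, or 11 of 42 against 20.8% in either direction. The threshold was an adjusted p of 0.05. Among those that rose, *Mx1*, a gene of the Mx GTPase family, was at 30.5, 32.2 and 32.4 CPM in WT NK1.1+ against 20.2, 18.7 and 16.0 CPM in WT NK1.1- libraries (log2 fold change 0.76 ± 0.16, adjusted p = 0.00577 from edgeR). *Samd9l*, a restriction factor of poxviruses, was at 109, 83.0 and 87.6 CPM in WT NK1.1+ against 70.0, 50.8 and 39.2 CPM in WT NK1.1- libraries (0.78 ± 0.20, adjusted p = 0.0183 from edgeR). *Parp14*, an ADP-ribosyltransferase, was at 82.3, 93.8 and 109 CPM in WT NK1.1+ against 71.1, 70.1 and 60.3 CPM in WT NK1.1- libraries (0.47 ± 0.14, adjusted p = 0.0358 from edgeR). None of the 3 genes had overlapping groups. Of the guanylate-binding GTPases, *Gbp3* was at 38.3, 38.7 and 38.5 CPM in WT NK1.1+ against 28.3, 26.0 and 21.0 CPM in WT NK1.1- libraries (0.58 ± 0.16, adjusted p = 0.0227 from edgeR). *Gbp7* was at 214, 170 and 158 CPM in WT NK1.1+ against 128, 120 and 105 CPM in WT NK1.1- libraries (0.59 ± 0.15, adjusted p = 0.0142 from edgeR).
The members that fell belong to the 2′-5′ oligoadenylate synthetase group and to *Ifi27*. *Oasl2*, an OAS-like protein at chr5:114896936-114912234, was at 49.0, 41.2 and 43.1 CPM in WT NK1.1+ against 103, 76.8 and 79.1 CPM in WT NK1.1- libraries (-0.99 ± 0.15, adjusted p = 0.000756 from edgeR). *Oas3*, which makes the 2-5A messenger of RNase L, was at 190, 168 and 171 CPM in WT NK1.1+ against 244, 214 and 250 CPM in WT NK1.1- libraries (-0.45 ± 0.12, adjusted p = 0.0195 from edgeR). *Ifi27*, at chr12:103434211-103440239, was at 161, 157 and 140 CPM in WT NK1.1+ against 237, 210 and 240 CPM in WT NK1.1- libraries (-0.61 ± 0.12, adjusted p = 0.0039 from edgeR). In all 3 genes the groups did not overlap. Over the 42 members 27 were higher and 15 lower, with a median log2 fold change of 0.12 against 0.01 over all genes. The groups did not overlap for 11 members that were higher and 3 that were lower, against 20.4% and 18.6% of all genes.
*Oasl2*, *Ifi27*, *Mx1* and the 3 IFITM genes kept their calls whichever library was left out, while *Gbp7* (adjusted p = 0.0703 without WT NK1.1- replicate 3), *Gbp3*, *Oas3*, *Samd9l* and *Parp14* (adjusted p up to 0.0821, 0.101, 0.0737 and 0.169 from edgeR) did not, and 6 members were called without WT NK1.1- replicate 3. Libraries of the same replicate number deviated together in the WT pools, and with the replicate number as a block 15 members passed, 12 higher and 3 lower. The 4 additional ones were *Ifit3* (log2 fold change 0.91, adjusted p = 5.01e-05 against 0.0976 without the block), *Ifit3b* (0.73, adjusted p = 0.000492 against 0.287), *Ifit1* (0.42, adjusted p = 0.0135 against 0.437) and *Isg20* (0.36, adjusted p = 0.0412 against 0.161), all from edgeR. The share of all genes passing with the block is not given here, so the added calls are not shown to be particular to the members. The same holds for counts with 1 library left out, here and in the comparisons below.

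In miR-155KI cells 13 of 42 members passed the threshold between the pools, against 14.1% of all genes tested. The NK1.1+ cells had 8 of them higher and 5 lower, against 7.92% and 6.15% of all genes. *Gbp3* was at 25.1, 58.9 and 47.2 CPM in miR-155KI NK1.1+ against 14.5, 18.4 and 14.1 CPM in miR-155KI NK1.1- libraries (log2 fold change 1.48 ± 0.31, adjusted p = 0.0113 from edgeR). *Ifit3*, which binds with IFIT1 to foreign RNA and shares 51.2% of its 50-base stretches with other genes, mainly *Ifit3b*, was at 223, 183 and 291 CPM in miR-155KI NK1.1+ against 128, 112 and 97.7 CPM in miR-155KI NK1.1- libraries (1.04 ± 0.18, adjusted p = 0.00408 from edgeR). *Samd9l* was at 101, 94.8 and 117 CPM in miR-155KI NK1.1+ against 65.8, 74.3 and 59.5 CPM in miR-155KI NK1.1- libraries (0.65 ± 0.14, adjusted p = 0.0165 from edgeR). The lowest NK1.1+ library lay above the highest NK1.1- library in each of them. *Gbp7* was at 132, 148 and 213 CPM in miR-155KI NK1.1+ against 95.5, 102 and 112 CPM in miR-155KI NK1.1- libraries (0.67 ± 0.18, adjusted p = 0.0317 from edgeR). *Igtp* was at 226, 202 and 245 CPM in miR-155KI NK1.1+ against 154, 154 and 174 CPM in miR-155KI NK1.1- libraries (0.48 ± 0.12, adjusted p = 0.0223 from edgeR). Of the 50-base stretches of *Igtp*, 11.8% also occur in other genes, mainly *Irgm2*, which overlaps it on the same strand, so that reads there may be split between them.
Among the members that fell, *Oasl2* was at 62.9, 60.9 and 62.8 CPM in miR-155KI NK1.1+ against 136, 138 and 125 CPM in miR-155KI NK1.1- libraries (-1.10 ± 0.12, adjusted p = 0.000332 from edgeR). *Ifi27* was at 190, 214 and 206 CPM in miR-155KI NK1.1+ against 297, 337 and 313 CPM in miR-155KI NK1.1- libraries (-0.64 ± 0.11, adjusted p = 0.00403 from edgeR). *Oas3* was at 93.1, 166 and 132 CPM in miR-155KI NK1.1+ against 303, 247 and 220 CPM in miR-155KI NK1.1- libraries (-0.98 ± 0.21, adjusted p = 0.0125 from edgeR). These 3 genes also fell between the WT pools. *Oas1a*, a further 2-5A synthetase that shares 57.6% of its 50-base stretches with other genes, mainly *Oas1g*, was at 75.1, 68.3 and 98.6 CPM in miR-155KI NK1.1+ against 135, 145 and 138 CPM in miR-155KI NK1.1- libraries (-0.79 ± 0.15, adjusted p = 0.00782 from edgeR). *Iigp1*, a GTPase that disrupts the vacuoles of intracellular parasites, was at 13.7, 11.6 and 25.9 CPM in miR-155KI NK1.1+ against 31.7, 38.1 and 36.2 CPM in miR-155KI NK1.1- libraries (-1.05 ± 0.30, adjusted p = 0.0456 from edgeR). Neither had overlapping groups.
Over the 42 members 25 were higher and 17 lower, with a median of 0.11 against 0.03 over all genes. The groups did not overlap for 13 members that were higher and 6 that were lower, against 17.5% and 17.1% of all genes. The calls of *Oasl2*, *Oas1a*, *Ifi27*, *Ifit3* and *Ifitm3* held whichever library was left out. The other 8 did not (adjusted p up to 0.0687 for *Gbp3*, 0.139 for *Gbp7*, 0.0961 for *Samd9l*, 0.0866 for *Ifitm1*, 0.0745 for *Ifitm2*, 0.131 for *Igtp*, 0.0591 for *Oas3* and 0.156 for *Iigp1*, from edgeR), and the count of calls was 5, 8 and 7 without miR-155KI NK1.1- replicates 1, 2 and 3. The NK1.1+ libraries of this comparison are also those with the higher myeloid marker sums (481 to 1220 CPM against 347 to 387 CPM), and 6 of 13 tested myeloid markers were higher and 1 lower between these pools. Their part in the members' changes was not tested.

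The comparisons in miR-155KI and in WT cells share no library. In both, without the replicate block, 9 members passed the threshold in the same direction. They were *Ifitm1*, *Ifitm2*, *Ifitm3*, *Samd9l*, *Gbp3* and *Gbp7* higher and *Oas3*, *Oasl2* and *Ifi27* lower, which is 69.2% of the miR-155KI calls and 81.8% of the WT calls. With the block *Ifit3*, which rose between the miR-155KI pools, passed as higher between the WT pools too (adjusted p = 5.01e-05 from edgeR). The values that follow are also from the fits without the block. The sign was the same for 34 of 42 members (81%) against 74.7% of all 12642 genes tested in both, and the fold changes correlated across the 42 genes with r = 0.96, or r = 0.87 over 39 genes without the IFITM family, against 0.65 over all genes. Genes are not independent replicates, and no p is given for these values.

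**Figure D3:**
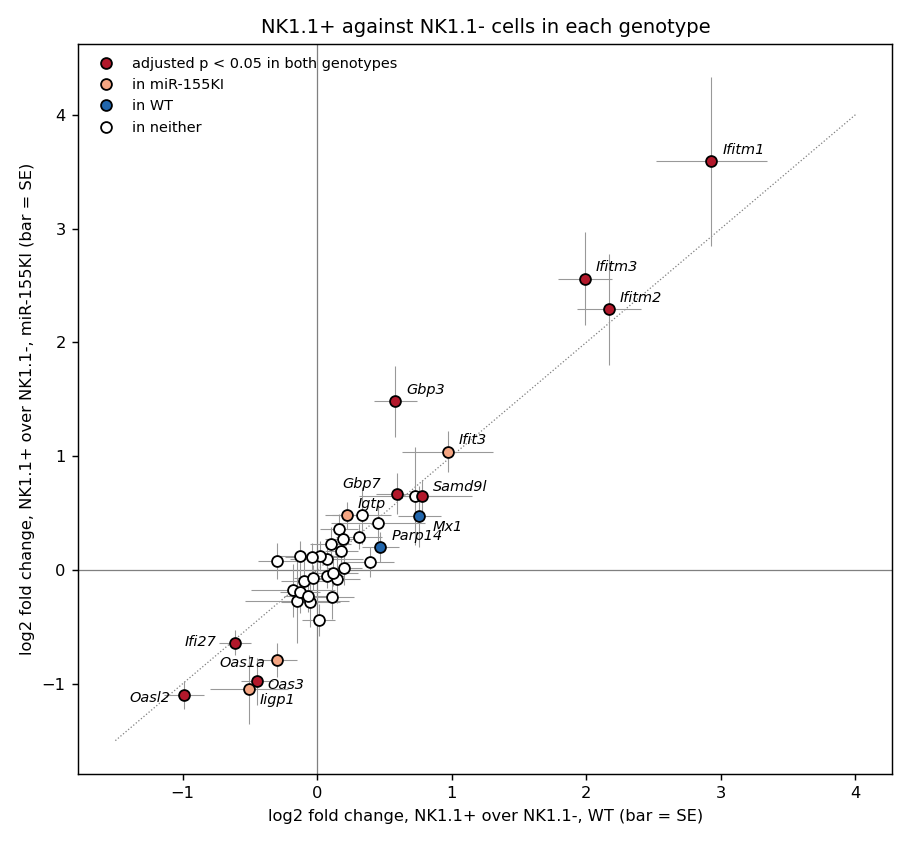
Log2 fold change (NK1.1+ over NK1.1-) of the 42 members in miR-155KI cells (y axis) against that in WT cells (x axis), with standard errors from edgeR. Colours show in which genotype a gene passed an adjusted p under 0.05 without the replicate block, and the dotted line marks equal changes. *Ifitm1*, *Ifitm2* and *Ifitm3* stand alone at the upper right with log2 fold changes of 1.99 to 3.59, and *Oasl2* lies lowest in WT cells at -0.99.

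Within the NK1.1- pool, miR-155 overexpression went with a higher level of 3 members and a lower level of 1, 4 of 42 against 3.44% of all genes tested (1.93% higher and 1.50% lower). *Iigp1* was at 31.7, 38.1 and 36.2 CPM in miR-155KI against 20.2, 18.2 and 15.5 CPM in WT NK1.1- libraries, so every miR-155KI library lay above every WT library (log2 fold change 0.96 ± 0.16, adjusted p = 0.00514 from edgeR). *Oasl2* was at 136, 138 and 125 CPM in miR-155KI against 103, 76.8 and 79.1 CPM in WT NK1.1- libraries (0.61 ± 0.13, adjusted p = 0.0195 from edgeR), and WT replicate 1 came closest to the miR-155KI libraries. *Ifi27* was at 297, 337 and 313 CPM in miR-155KI against 237, 210 and 240 CPM in WT NK1.1- libraries (0.44 ± 0.10, adjusted p = 0.0289 from edgeR). *Ifitm3* was at 2.47, 3.16 and 2.41 CPM in miR-155KI against 5.38, 6.35 and 7.25 CPM in WT NK1.1- libraries (-1.26 ± 0.30, adjusted p = 0.0394 from edgeR). The groups did not overlap in any of the 4. Of the genes of type I interferon 2 rose and 1 fell, and of those also induced by IFN-γ 1 rose.
The members next in line did not pass. *Gbp3* was at 14.5, 18.4 and 14.1 CPM in miR-155KI against 28.3, 26.0 and 21.0 CPM in WT NK1.1- libraries (log2 fold change -0.70 ± 0.18, adjusted p = 0.0552 from edgeR), with no overlap. *Ifih1*, which encodes MDA5, a sensor of long double-stranded RNA, was at 50.6, 51.8 and 65.4 CPM in miR-155KI against 43.3, 39.5 and 34.5 CPM in WT NK1.1- libraries (0.50 ± 0.14, adjusted p = 0.0807 from edgeR). Taking all 42 members, 29 were higher and 13 lower with a median log2 fold change of 0.11, against -0.00 over all genes, 49.9% of which were higher. For 9 members that were higher and 3 that were lower the groups did not overlap, against 13.2% and 9.93% of all genes.
Of the 4 calls, that of *Iigp1* held whichever library was left out (adjusted p = 0.00306 to 0.0301 from edgeR). *Oasl2* passed without WT replicate 1 or miR-155KI replicate 3 and missed the threshold when another library was left out, with an edgeR adjusted p of 0.0986 and 0.0858 for WT replicates 2 and 3 and of 0.106 and 0.0799 for miR-155KI replicates 1 and 2. *Ifi27* and *Ifitm3* passed only when WT replicate 1 was the library left out, with an adjusted p of up to 0.166 and 0.164 from edgeR in the other cases. Set against WT replicate 1 alone, a library chosen after seeing that it stood apart, the log2 fold changes were 0.81 for *Iigp1*, 0.37 for *Oasl2*, 0.42 for *Ifi27* and -1.0 for *Ifitm3*. These are values only, since a single WT library has no spread of its own. Markers of the *i*NKT subsets moved with genotype in the same libraries. Of 6 markers of the NK1.1+ pool 0 were higher and 4 lower in miR-155KI NK1.1- cells (*Tbx21*, *Xcl1*, *Il2rb* and *Klrb1c*, log2 fold changes -1.23, -0.92, -0.51 and -0.71), and of 6 markers of *i*NKT2 and *i*NKT17 cells 1 was higher (*Il17rb*, 0.89) and 3 were lower, among them *Il23r* and *Ccr6* (-3.18 and -2.89), all past the threshold in edgeR. The sums were 632 to 776 CPM in miR-155KI against 1020 to 1230 CPM in WT NK1.1- libraries for the NK1.1+ pool markers, and 1140 to 1220 CPM against 952 to 1020 CPM for the *i*NKT2 and *i*NKT17 markers. The latter sum adds up genes that moved in opposite directions. The part of these markers in the members' changes was not tested.

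Within the NK1.1+ pool 0 of 42 members passed the threshold in edgeR, against 0.0231% of all genes tested, and 0 passed in DESeq2 or limma. At an unadjusted p under 0.05 there were 3 higher and 6 lower members, against 5.24% and 6.60% of all genes. *Dhx58*, which encodes LGP2, a regulator of the RNA sensors, was at 76.5, 83.3 and 64.8 CPM in miR-155KI against 53.1, 46.4 and 53.7 CPM in WT NK1.1+ libraries (log2 fold change 0.54 ± 0.16, adjusted p = 0.273 from edgeR). *Ifi27* was at 190, 214 and 206 CPM in miR-155KI against 161, 157 and 140 CPM in WT NK1.1+ libraries (0.40 ± 0.13, adjusted p = 0.299 from edgeR). *Oasl2* was at 62.9, 60.9 and 62.8 CPM in miR-155KI against 49.0, 41.2 and 43.1 CPM in WT NK1.1+ libraries (0.47 ± 0.16, adjusted p = 0.31 from edgeR). In these 3 genes each miR-155KI library lay above each WT library. *Dtx3l*, a ubiquitin ligase that partners with PARP9, was at 79.6, 112 and 92.1 CPM in miR-155KI against 116, 128 and 128 CPM in WT NK1.1+ libraries (-0.41 ± 0.16, adjusted p = 0.353 from edgeR). *Parp14* was at 68.8, 71.4 and 79.9 CPM in miR-155KI against 82.3, 93.8 and 109 CPM in WT NK1.1+ libraries (-0.39 ± 0.16, adjusted p = 0.375 from edgeR). *Ifitm2* was at 11.5, 21.8 and 9.46 CPM in miR-155KI against 30.2, 25.3 and 20.6 CPM in WT NK1.1+ libraries, where the groups overlapped (-0.85 ± 0.34, adjusted p = 0.36 from edgeR).
Over the 42 members 24 were higher and 18 lower, with a median of 0.04 against 0.02 over all genes. That median was 0.24 without WT NK1.1+ replicate 1. The groups did not overlap for 4 members that were higher and 5 that were lower, against 8.46% and 8.34% of all genes. *Dhx58* and *Dtx3l* each overlap an annotated gene on the opposite strand (*Dhx58os* and *Parp9*), and since use of strand in the counting is not stated, reads of such pairs cannot be told apart. The replicate spread was wider here than in the NK1.1- pool, with a biological coefficient of variation of 0.369 against 0.211.

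**Figure D4:**
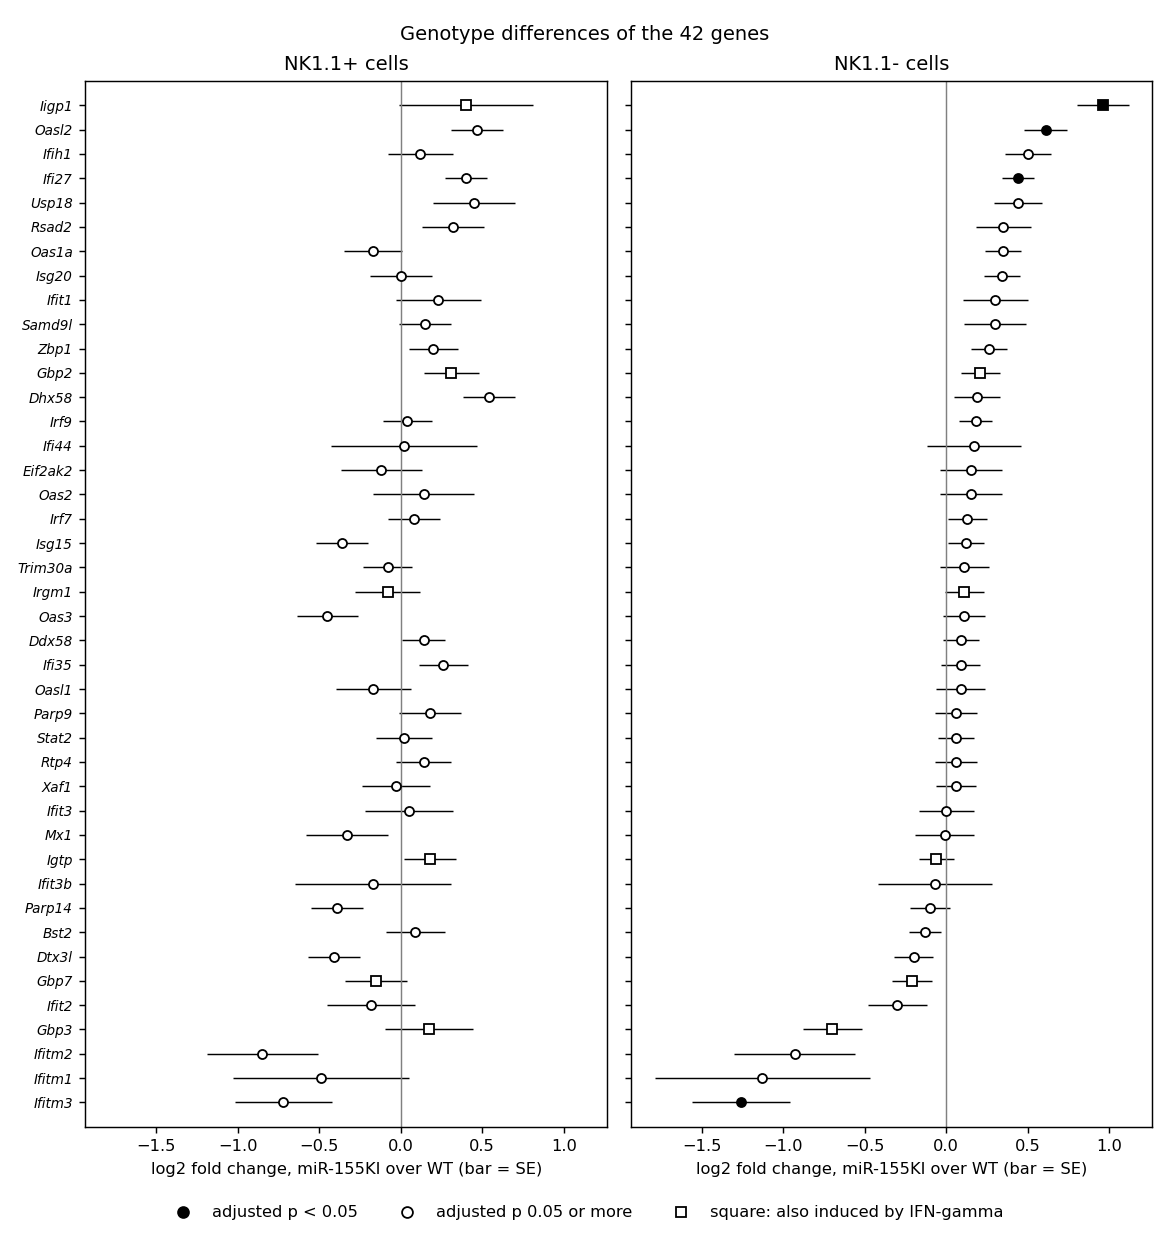
Log2 fold change (miR-155KI over WT) of each of the 42 members with its standard error from edgeR, in NK1.1+ cells (left panel) and NK1.1- cells (right panel), 1 gene per row. Filled symbols passed an adjusted p under 0.05, and squares are genes also induced by IFN-γ. *Iigp1*, *Oasl2*, *Ifi27* and *Ifitm3* are filled in the NK1.1- panel, and no symbol is filled in the NK1.1+ panel.

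Whether genotype acted differently in the 2 pools was tested with an interaction term. In the fit over all 12 libraries edgeR called 0 of 42, against 0.0278% of all genes, and 0 were called by DESeq2 or limma. At an unadjusted p under 0.05 edgeR had 1 member with a positive and 3 with a negative interaction (NK1.1+ effect minus NK1.1- effect), against 4.36% and 3.74% of all genes. These were *Gbp3* (0.87 ± 0.35, adjusted p = 0.539), *Isg15* (-0.48 ± 0.18, adjusted p = 0.511), *Oas1a* (-0.52 ± 0.22, adjusted p = 0.569) and *Oas3* (-0.55 ± 0.24, adjusted p = 0.588), on the log2 scale from edgeR. *Isg15* was at 57.0, 47.9 and 50.5 CPM in miR-155KI NK1.1+ against 66.6, 66.7 and 63.4 CPM in WT NK1.1+ libraries, and at 68.3, 70.8 and 71.1 CPM in miR-155KI NK1.1- against 68.9, 57.6 and 65.0 CPM in WT NK1.1- libraries. *Oas1a* was at 75.1, 68.3 and 98.6 CPM in miR-155KI NK1.1+ against 103, 74.8 and 92.3 CPM in WT NK1.1+ libraries, and at 135, 145 and 138 CPM in miR-155KI NK1.1- against 110, 93.7 and 121 CPM in WT NK1.1- libraries. Both genes were on average lower in miR-155KI cells of the NK1.1+ pool and higher in those of the NK1.1- pool. The next members by p were the sensors *Dhx58* (0.35, adjusted p = 0.747 from edgeR), at 79.8, 69.8 and 62.6 CPM in miR-155KI against 63.5, 51.7 and 69.2 CPM in WT NK1.1- libraries, and *Ifih1* (-0.39, adjusted p = 0.758 from edgeR), at 48.3, 55.8 and 37.5 CPM in miR-155KI against 49.3, 41.7 and 38.3 CPM in WT NK1.1+ libraries. *Iigp1*, which passed by genotype in NK1.1- cells alone, had an interaction of -0.57 ± 0.45 (adjusted p = 0.817 from edgeR), so its effect is not shown to differ between the pools.

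The members that passed in no comparison without the replicate block number 27. *Ifit1*, *Ifit3b* and *Isg20* are among them and passed between the WT pools with the block. The 27 are the transcription factors *Stat2*, *Irf7* and *Irf9*, the RNA sensors *Ifih1*, *Ddx58* and *Dhx58*, 3 of 4 Ifit genes (*Ifit1*, *Ifit2* and *Ifit3b*), *Oas2* and *Oasl1*, the modifiers *Isg15* and *Usp18* with *Parp9* and *Dtx3l*, *Bst2*, *Gbp2*, *Irgm1* and 9 other effectors. Their log2 fold changes (miR-155KI over WT) ran from -0.41 to 0.54 in the NK1.1+ pool and from -0.30 to 0.50 in the NK1.1- pool. Between the pools (NK1.1+ over NK1.1-) they ran from -0.44 to 0.65 in miR-155KI and from -0.30 to 0.73 in WT cells. *Irf7*, the factor that amplifies type I interferon, was the most abundant of them in CPM, at 306, 308 and 309 CPM in miR-155KI NK1.1+, 364, 235 and 268 CPM in WT NK1.1+, 274, 238 and 243 CPM in miR-155KI NK1.1- and 240, 191 and 252 CPM in WT NK1.1- libraries.

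Among the WT libraries, replicate 1 was the highest for most members. WT replicate 1 had the highest level of the 3 WT libraries for 32 of 42 members in the NK1.1+ pool and for 32 of 42 in the NK1.1- pool, against 39.4% and 36.4% of all genes, and for 23 members in both pools, against 20.1% of all genes. *Ifit1*, which binds viral RNA lacking a methylated cap, was at 143, 71.7 and 73.0 CPM in WT NK1.1+ and at 96.3, 53.5 and 57.1 CPM in WT NK1.1- replicates 1, 2 and 3. *Usp18*, the protease that removes ISG15 and restrains the receptor, was at 80.2, 41.3 and 48.4 CPM in WT NK1.1+ and at 67.5, 40.4 and 51.1 CPM in WT NK1.1- replicates. In both genes and both pools replicate 1 was the highest. Set against 1 WT library at a time in the NK1.1+ pool, the miR-155KI mean was higher for 11 of 42 members against WT replicate 1, and for 31 and 30 of 42 against WT replicates 2 and 3 (median log2 differences -0.25, 0.27 and 0.19). In the NK1.1- pool it was higher for 17, 31 and 34 of 42 members (median log2 differences -0.09, 0.28 and 0.19). WT replicate 1 is also the WT number whose ratio of Y-linked RNA to *Xist* was like that of the miR-155KI libraries, and this cannot be told apart from any other property of those 2 libraries. With that ratio as a covariate, the median log2 fold change of the members became -0.21 for NK1.1+ cells and -0.09 for NK1.1- cells. In that fit edgeR called 0 members in either pool, and 0 passed in NK1.1+ cells without the covariate too. All miR-155KI libraries share the sign of the ratio with WT replicate 1. The covariate thus leaves the genotype difference resting mainly on that replicate, and the loss of calls cannot be assigned to the ratio. B cell markers were also highest in WT replicate 1, at 322 CPM against 270 and 272 CPM in the NK1.1+ pool and at 930 CPM against 203 and 170 CPM in the NK1.1- pool. Myeloid markers were highest there too, at 277 CPM against 234 and 231 CPM in the NK1.1+ pool and at 437 CPM against 268 and 274 CPM in the NK1.1- pool. In the NK1.1- pool alone, so were markers of plasmacytoid dendritic cells (421 CPM against 288 and 377 CPM) and double-positive thymocytes (59.3 CPM against 30.9 and 26.5 CPM). The part of these markers in the pattern was not tested.

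**Figure D5:**
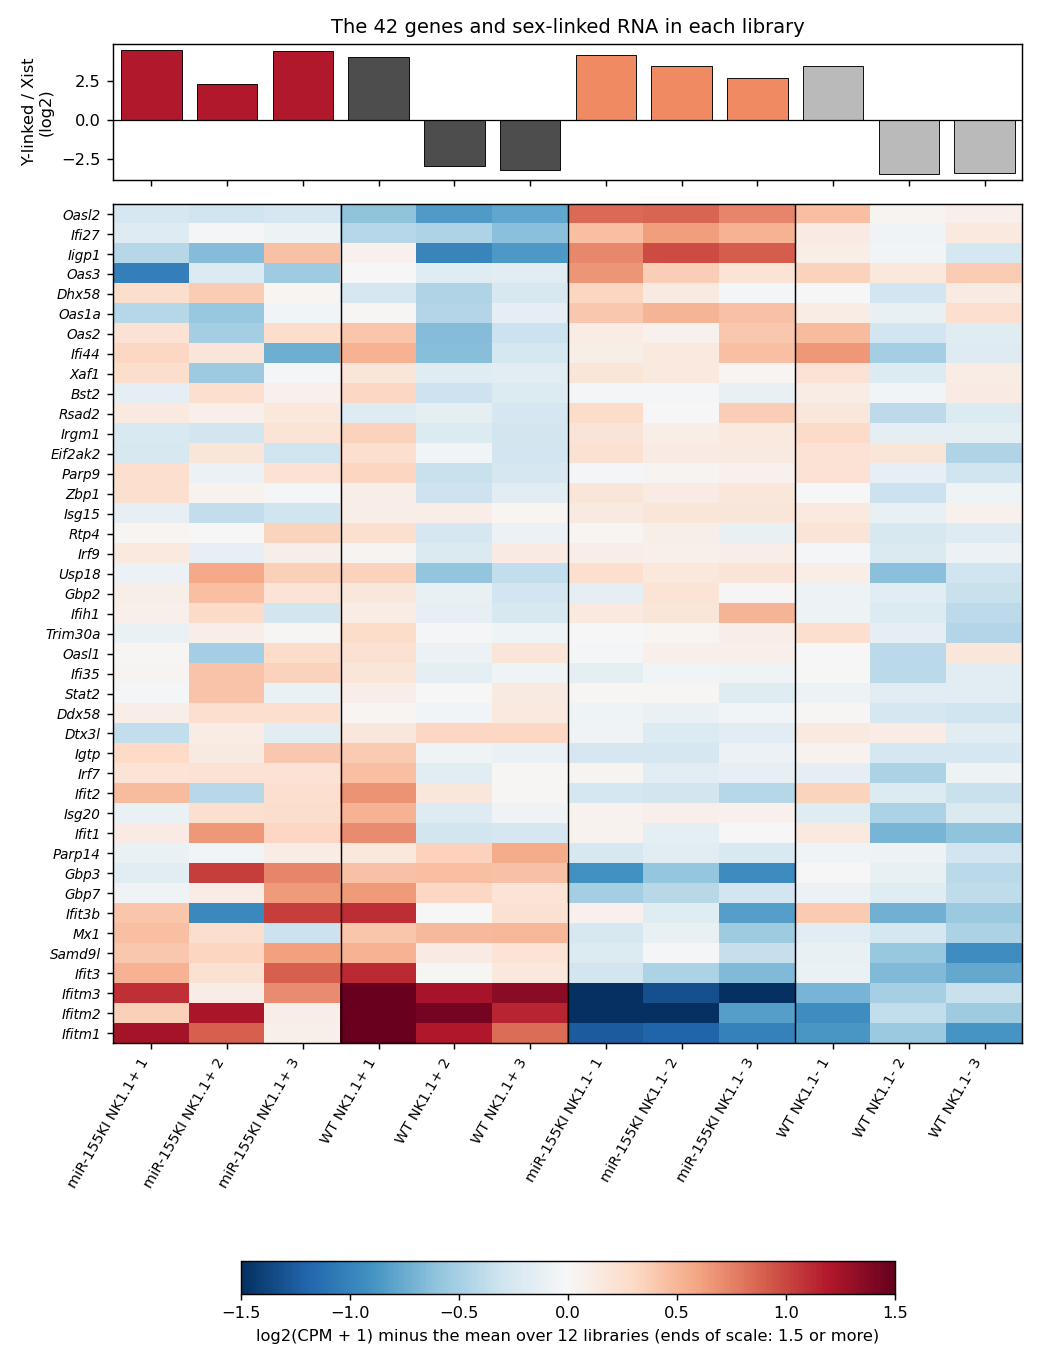
Level of each of the 42 members (rows, ordered by the WT pool difference) in each of the 12 libraries (columns), as log2(CPM + 1) minus the gene's mean over the libraries, beneath bars of each library's log2 ratio of Y-linked RNA to *Xist*. The IFITM genes split the pools, most members are high in replicate 1 among the WT libraries of each pool, and the ratio is negative in WT replicates 2 and 3 (-3.49 to -2.97).

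Of the genes upstream of the members, *Ifng* and the receptor chains differed between the pools. Of the 20 type I and type III interferon genes, 4 had 0 counts in all libraries and the highest value was 25 counts (*Ifna1* in miR-155KI NK1.1+ replicate 3). *Ifng*, which encodes IFN-γ, was at 137, 269 and 211 CPM in miR-155KI NK1.1+ against 206, 238 and 129 CPM in WT NK1.1+ libraries, and at 16.3, 24.5 and 21.7 CPM in miR-155KI NK1.1- against 39.1, 70.4 and 49.3 CPM in WT NK1.1- libraries. It was lower in miR-155KI than in WT NK1.1- cells with no overlap (log2 fold change -1.38 ± 0.23, adjusted p = 0.00898 from edgeR), and higher in NK1.1+ than in NK1.1- cells of both genotypes (3.31 in miR-155KI, adjusted p = 4.58e-05, and 1.82 in WT cells, adjusted p = 0.00329, from edgeR). *Ifngr1*, the ligand-binding chain of the IFN-γ receptor, was at 261, 410 and 388 CPM in miR-155KI NK1.1+ against 533, 539 and 699 CPM in WT NK1.1+ libraries, and at 52.2, 59.7 and 60.3 CPM in miR-155KI NK1.1- against 100, 150 and 126 CPM in WT NK1.1- libraries. Its fold change by genotype was -1.15 in NK1.1- cells (adjusted p = 0.001) and -0.76 in NK1.1+ cells (adjusted p = 0.23), on the log2 scale from edgeR, without overlap in either pool.
*Ifngr2*, the signaling chain, ran the other way between the WT pools, at 2.94, 4.20 and 5.01 CPM in WT NK1.1+ against 26.0, 33.0 and 50.1 CPM in WT NK1.1- libraries (-3.20, adjusted p = 3.13e-05 from edgeR), and at 16.1, 2.11 and 3.34 CPM in miR-155KI NK1.1+ against 28.7, 31.6 and 26.1 CPM in miR-155KI NK1.1- libraries (-2.01, adjusted p = 0.0621 from edgeR). The type I receptor chains *Ifnar1* (0.77, adjusted p = 0.032) and *Ifnar2* (0.38, adjusted p = 0.0389) were higher in WT NK1.1+ than in WT NK1.1- cells in edgeR. Their levels ran the same way between the miR-155KI pools. *Ifnar1* was at 120, 152 and 169 CPM in miR-155KI NK1.1+ against 98.6, 108 and 114 CPM in miR-155KI NK1.1- libraries. *Ifnar2* was at 103, 122 and 108 CPM against 83.0, 84.9 and 82.3 CPM in the same libraries. *Socs1*, whose miR-155 site is printed with the miRNA, was at 151, 226 and 205 CPM in miR-155KI NK1.1+ against 212, 203 and 212 CPM in WT NK1.1+ libraries, and at 88.9, 94.4 and 65.8 CPM in miR-155KI NK1.1- against 88.5, 79.7 and 102 CPM in WT NK1.1- libraries. Genotype gave it log2 fold changes of -0.12 (adjusted p = 0.81) in NK1.1+ and -0.13 (adjusted p = 0.687) in NK1.1- cells, while the pools differed by 1.22 in miR-155KI (adjusted p = 0.00257) and 1.18 in WT cells (adjusted p = 8.15e-05), from edgeR.
Of 15 receptor, JAK, STAT and IRF genes tested, 0 were higher and 1 lower by genotype in NK1.1- cells, 8 higher and 0 lower in NK1.1+ over NK1.1- cells in miR-155KI mice, and 9 higher and 1 lower in WT mice. By genotype in NK1.1- cells, 1.93% of all genes tested were higher and 1.50% lower. Beside these and the following counts between the pools stand 7.92% of all genes tested that were higher and 6.15% that were lower in miR-155KI cells, and 9.89% and 10.9% in WT cells. The receptor, JAK, STAT and IRF genes included *Il10rb*, a chain shared by the receptors of type III interferon and IL-10 (1.74 in miR-155KI and 1.80 in WT cells), *Irf8*, a factor of the IFN-γ response (2.01 and 1.27), and *Jak1* (0.54 in both), as well as *Irf1* (0.61) and *Tyk2* (0.55) in miR-155KI cells and *Irf5* (1.02) in WT cells. Of 12 feedback genes tested, 5 rose between the miR-155KI pools and 3 between the WT pools, led by *Socs2* (2.97 and 2.23) and joined by *Ptpn6*, which encodes the phosphatase SHP-1 (0.89 and 0.77), and in miR-155KI cells also by *Cish* (1.08) and *Socs3* (0.84). Of 11 nucleic acid sensing genes tested in miR-155KI and 12 in WT cells, *Ikbke*, a kinase of IRF activation, alone passed and fell (-0.64 and -0.53). All these values are log2 fold changes of NK1.1+ over NK1.1- cells from edgeR.
Of 46 interferon-stimulated genes tested outside the 42, 1 rose by genotype in NK1.1- cells, which is near the 1.93% of all genes. It was *Samhd1*, a nucleotide hydrolase that restricts retroviruses, at 263, 237 and 287 CPM in miR-155KI against 167, 146 and 182 CPM in WT NK1.1- libraries (0.65, adjusted p = 0.0056 from edgeR). *Samhd1* fell between both pairs of pools (-1.17 in miR-155KI and -0.60 in WT cells). Between the pools, 9 of the 46 rose and 4 fell in miR-155KI cells, and 8 rose and 2 fell in WT cells, where 10 of 46 past the threshold is near the 20.8% of all genes. *Ifi203*, a PYHIN family gene, rose in both (1.26 and 1.08), *Apobec3* (0.70), a restriction factor of retroviruses, and *Sp110* (0.59) rose and *Phf11b* (-0.75) and *Ifi27l2a* (-0.59) fell in miR-155KI cells, and *Uba7* (0.52), the enzyme that activates ISG15, *Helz2* (0.57), *Slfn8* (0.92) and *Trim30d* (0.95) rose in WT cells. Of 23 further genes of the IFN-γ response, 8 rose and 1 fell between the miR-155KI pools and 7 rose and 0 fell between the WT pools, against 14.1% and 20.8% of all genes called in either direction, among them *Gbp9* (1.43 and 1.23), *Gbp4* (0.84 and 0.56), *Gbp8* (0.83 and 0.96) and *Nlrc5*, an activator of MHC class I genes (0.89 and 0.89), as log2 fold changes from edgeR, and *Gbp5* (1.18) in WT cells. *Cxcl10*, a chemokine of the same response, was at 5.46, 8.72 and 5.62 CPM in miR-155KI against 11.3, 20.9 and 14.4 CPM in WT NK1.1- libraries (-1.27, adjusted p = 0.0286 from edgeR), and it rose between the miR-155KI pools (1.87, adjusted p = 0.00491). In NK1.1+ cells edgeR called 0 genes of each of these 5 lists by genotype, and the counts at an unadjusted p under 0.05 were 3 receptor, JAK, STAT and IRF genes, 2 feedback genes, 3 further genes of the IFN-γ response and 0 of the other lists, all lower.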

How the data were processed

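Thymic *i*NKT cells were sorted by flow cytometry, RNA was extracted and amplified with a low-input full-length cDNA kit per the labels (the study's methods name another kit, and use of strand in counting is not stated), and 12 libraries were sequenced. The submitters' processing notes name bcl2fastq 2.17.1.14 and GRCm38 (mm10), and reads were counted per gene with a tool not given in the sources used here. Raw counts per gene symbol, which are whole numbers, were deposited by the authors, with a second table of normalized signal, which its name calls CPM and whose columns equal the counts scaled by TMM library sizes. Of the names, 27 look like dates rather than gene symbols and took 0.249% of the counts.

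Counts were tested with edgeR 4.0.16 (R 4.3.3), quasi-likelihood with robust fitting, TMM, its default filter with a minimum count of 10, and Benjamini-Hochberg adjustment over all genes tested, with a threshold of 0.05. Each comparison was fitted on its own 6 libraries, 3 per group, and the interaction on all 12. Leaving out each library, another scaling, other filters, DESeq2 1.42.0, limma 3.58.1 on log2(CPM + 1) and log2(CPM + 0.1), a replicate block, 1 joint fit and the Y-linked to *Xist* ratio were the alternatives. The test was checked on simulated counts. The precision of a single level is limited by the depth of 12819476 to 20518257 counts. All pairs of libraries within a group differed by more than sampling noise.

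Replicates of the same number were taken to pair the WT pools, since same-numbered libraries deviated together there (correlations of deviations 0.374, 0.267 and 0.161). The sources do not state this pairing. Each member past the threshold in a comparison, or the 6 with the smallest p, was given with every library's value, the other members by counts and ranges, and of the other lists up to 6 genes past the threshold per list. The members and lists were chosen with earlier results of these data known. Promoters, the miRNA and gene positions are from RefSeq (GRCm38.p6) and GENCODE (GRCm38). The results of some genes are not reported here.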

Additional observations from a re-analysis of the deposited data

How the results depend on the processing

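Among the counts and medians over the members, 145 values under an alternative stayed within 1.5 times the count or within the spread between replicates and 19 moved, and for single members 583 kept direction and side of the threshold, 73 no longer passed, 7 newly passed and 0 reversed. That spread was 0.14 on the log2 scale, more than the size of any member median in the main fits. A median that changed sign can thus count as kept. Members and comparisons without a call in the main fit also count as kept when they stay without one. These totals therefore do not measure how stable the calls are. In NK1.1- cells by genotype, the count of 4 members became 7 without a filter on low counts, 1 with all 12 libraries in one fit, 0 with a covariate for the ratio of Y-linked RNA to *Xist*, and 1 to 6 leaving out 1 library, where 6 was reached without WT NK1.1- replicate 1. With the covariate, genotype is set apart from the ratio mainly through WT replicate 1, so its count cannot decide about the calls. With WT replicate 1 as the only WT library, WT spread is assumed like that of miR-155KI libraries, so only effect sizes are given. The median log2 fold change of 0.11 became -0.09 with the covariate and -0.09 with WT replicate 1 alone. Over all genes, the calls in this comparison numbered 457, against 960 with DESeq2, 1048 without the filter and 737 with the replicate block. In NK1.1+ cells by genotype the median of 0.04 became -0.21 with the covariate and -0.25 with WT replicate 1 as the only WT library, and ranged between -0.07 and 0.24 leaving out 1 library. Between the pools the count ran from 5 to 15 in miR-155KI cells and from 6 to 12 in WT cells leaving out 1 library, and the median interaction from -0.20 to 0.05. The cause of these moves was not tested.

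With the replicate number as a block, 13 members passed between the miR-155KI pools, 15 between the WT pools (16 with limma on log2(CPM + 1), an alternative chosen after seeing the data), 5 by genotype in NK1.1- cells, 0 by genotype in NK1.1+ cells and 0 in the interaction, also when the block was set within genotype, which was added after seeing the data. The labels number the replicates alike in all groups, and the pairing of the WT pools was read from the correlations. Same-numbered libraries correlated at 0.134, 0.092 and 0.070 between the miR-155KI pools, against -0.104 to 0.008 for different numbers. Between genotypes the values were 0.095, 0.204 and 0.094 in NK1.1- cells, against -0.115 to 0.015. In NK1.1+ cells they were -0.052, 0.028 and 0.017, against -0.083 to 0.050. *Ifitm1* in NK1.1- cells, at 4 to 18 counts, is the member whose level depth limits most. With 3 libraries per group, myeloid and B cell markers that differ between libraries, and Y-linked RNA that splits the WT libraries, the calls describe these libraries.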
